A study of Ovis aries with 26 samples.

Results

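Prostaglandins are signals that a sheep conceptus makes before it attaches to the uterus, and the 5 genes described here span their route from release to breakdown. They are PLA2G4A, PTGS2, PTGES, AKR1B1 and HPGD, chosen by name for their roles, with earlier results of these data known. All 5 were present among the 30186 genes of the deposited expression table. The table covers poly(A) RNA of sheep oocytes and preimplantation embryos, sequenced in 26 libraries made by direct lysis and Smart-seq2, which amplifies full-length cDNA from very little RNA. The 8 stages were mature oocytes arrested in metaphase of meiosis II (MII, 2 libraries), embryos of 2 cells (2C, 4 libraries), 4 cells (4C, 3 libraries), 8 cells (8C, 4 libraries) and 16 cells (16C, 3 libraries), morulae (Morula, 3 libraries), early blastocysts (EarlyB, 3 libraries) and expanded blastocysts (ExpB, 4 libraries). All embryos came from in vitro fertilization, with 16 h of sperm culture and 20 oocytes per drop given for every embryo library. Neither is given for MII. The embryos grew in culture without a uterus, so the latest stage is an expanded blastocyst and not an elongating conceptus. The labels give neither the number of oocytes or embryos in a library nor whether replicates were separate animals or cultures. The p-values therefore speak of the spread between libraries alone, and that spread may be technical.

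In this pathway cytosolic phospholipase A2, the product of PLA2G4A, frees arachidonic acid from membrane lipids. Prostaglandin-endoperoxide synthase, also called cyclooxygenase, turns it into the unstable intermediate prostaglandin H2, and PTGS2 is the inducible form of that enzyme. PTGES, the microsomal prostaglandin E synthase, converts the intermediate to prostaglandin E2. AKR1B1, an aldo-keto reductase known also as aldose reductase, can make prostaglandin F2 alpha and has other substrates, among them glucose. HPGD, 15-hydroxyprostaglandin dehydrogenase, begins the breakdown of prostaglandins. In ruminants the trophectoderm, the outer epithelium of the blastocyst, is known to express PTGS2 and to secrete prostaglandins as the conceptus elongates.

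Levels are in FPKM, which are fragments scaled by gene length and by the assigned fragments of the library. They are given per library or as the stage mean ± SD. Differences are on the log2(FPKM + 1) scale, with their standard errors, from a limma fit over all 26 libraries with p-values adjusted over the 15766 genes tested. On that scale a change is understated where FPKM is low, near 1 or less. A gene was called changed at an adjusted p under 0.05 with a difference of at least 1, and "rose" and "fell" are used only of called changes. Assigned reads per library, in units of 1e6, were 27.2 to 35.6 up to 16C, against 25.9 to 30.4 for morulae, 16.0 to 19.9 for EarlyB and 19.3 to 25.4 for ExpB. FPKM summed to at most 514805 in each library up to 16C and to at least 586848 in each later one. Sums of oocyte and trophectoderm markers differed between MII and ExpB in the direction of the labels, though not every single marker followed its list. The summed FPKM of 6 oocyte genes was 2103 to 2172 in MII and 2.07 to 9.53 in ExpB, and that of 10 trophectoderm genes was 9.29 to 12.7 in MII and 3340 to 7530 in ExpB.

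The 5 genes did not follow a common course. PTGS2 was near 0 through 16C and climbed at each later step, to 984 ± 186 in ExpB. PTGES first passed an FPKM of 1 at 16C, reached 77.2 ± 18.7 in morulae and was not called changed after that. AKR1B1 was abundant in oocytes and cleavage embryos, fell to 77.6 ± 35.6 in morulae and returned to 1580 ± 388 in ExpB. PLA2G4A was highest at 2C, at 24.8 ± 8.10, and was at 0.781 ± 0.449 in EarlyB, while HPGD was at its highest in morulae, at 5.68 ± 2.48. All 5 differed among the 8 stages in limma's moderated F test, with adjusted p from 5.4e-21 for PTGS2 to 2.5e-08 for HPGD, but so did 93.7% of all genes tested. PTGS2, HPGD and PTGES passed the filter on low values only through their later stages, so a difference among stages was built into their being tested.

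**Figure D1:**
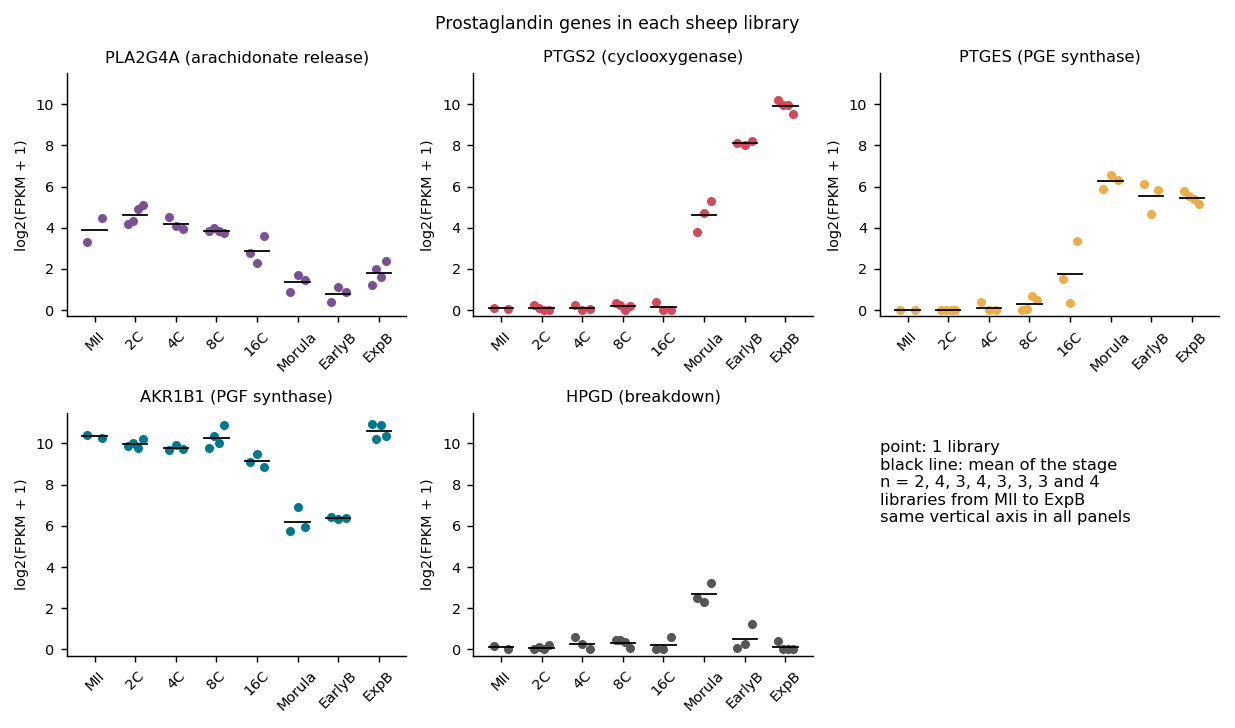
Level of each of the 5 prostaglandin genes as log2(FPKM + 1) on the vertical axis, by stage, with a point for each library and a black line for the stage mean. PTGS2 lies near 0 up to 16C and at an FPKM of 735 to 1186 in ExpB, AKR1B1 dips to 53.1 to 118 in morulae, and HPGD stands clear of 0 in all libraries of the morula stage.

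The first step of the pathway, release of arachidonate by PLA2G4A, was represented mainly by transcripts present in the oocyte and cleavage embryo. PLA2G4A was at 8.86 and 20.9 FPKM in the MII libraries, at 16.9, 19.1, 29.0 and 34.0 at 2C and at 21.7, 15.8 and 14.6 at 4C. At 8C it was at 13.2, 15.04, 13.2 and 12.4, and at 16C at 5.79, 3.95 and 10.95. Ordered by mean as 2C, 4C, MII and 8C, neighbours overlapped but 2C and 8C did not, and every 16C library lay below every 8C library. At 16C the difference from 8C was -0.97 ± 0.33 (limma adjusted p = 0.047), just short of the minimum size of a call. Of 37 alternative limma runs 4 called it. These were without 16C replicate 3 (-1.32, adjusted p = 0.014), on the TPM scale (-1.13, adjusted p = 0.037), with library weights (-1.33, adjusted p = 0.021) and with no minimum size. Over the 37 runs the difference lay between -1.33 and -0.68, with adjusted p up to 0.22. Against 4C, PLA2G4A fell at 16C by 1.30 ± 0.35 (limma adjusted p = 0.015), and this was no longer called without 4C replicate 1 (adjusted p = 0.075), without 16C replicate 2 (adjusted p = 0.084) and when these 2 stages were fitted alone (adjusted p = 0.094).

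PLA2G4A fell further in morulae, to 0.827, 2.23 and 1.78 FPKM, a difference of -1.54 ± 0.35 from 16C (limma adjusted p = 0.00065). It was at 0.295, 1.18 and 0.866 in EarlyB and at 1.30, 3.01, 2.101 and 4.27 in ExpB. The morula libraries lay below every 16C library, and the EarlyB and ExpB libraries did not overlap each other. The gene rose in ExpB by 1.01 ± 0.33 over EarlyB (limma adjusted p = 0.018). That call ended without EarlyB replicate 1 (adjusted p = 0.11), without ExpB replicate 4 (adjusted p = 0.068) and without ExpB replicate 2, where the difference was 0.95. Behind these values were 16 to 55 reads per EarlyB library and 73 to 315 per ExpB library. Even in ExpB the level was lower than in MII by 2.07 ± 0.37 on the log2(FPKM + 1) scale (limma adjusted p = 3.5e-05).

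The cyclooxygenase PTGS2 had the largest difference of the 5 between MII and ExpB, 9.84 ± 0.26 (limma adjusted p = 2e-18). It was at 0.0634 and 0.0523 FPKM in MII, at 0.179, 0.0714, 0 and 0 at 2C and at 0.201, 0.00900 and 0.0561 at 4C. At 8C it was at 0.267, 0.195, 0.0187 and 0.169, and at 16C at 0.318, 0.0189 and 0. These 16 libraries overlapped from stage to stage and held at most 38 PTGS2 reads each. These reads lack molecular identifiers, and a floor or a read number covers counting error only. In the libraries with no read, 3 reads would have given 0.0261 to 0.0268 FPKM. Of the 4 contrasts within these stages and the one of 16C with 4C, PTGS2 was called in 0, and its unadjusted limma p was under 0.05 in 0 of them.

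PTGS2 rose at each of the next 3 steps. In morulae it was at 13.1, 25.6 and 38.7 FPKM, from 1251 to 3483 reads, and every morula lay above every earlier library (difference from 16C 4.48 ± 0.25, limma adjusted p = 3.2e-12). In EarlyB it was at 273, 259 and 294 FPKM (difference from morulae 3.49 ± 0.25, limma adjusted p = 4.3e-10). In ExpB it was at 1186, 1006, 1009 and 735 FPKM (difference from EarlyB 1.82 ± 0.23, limma adjusted p = 2.8e-06). The 3 stages did not overlap one another. Mean FPKM was 10.7 times higher in EarlyB than in morulae and 3.58 times higher in ExpB than in EarlyB. Among all genes of a library, ordered by FPKM, PTGS2 stood between places 2122 and 4073 in morulae, 272 and 305 in EarlyB and 99 and 135 in ExpB. Because whole embryos were measured, more cells of a type and more RNA per cell cannot be told apart, here and in every other change described.

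Trophectoderm markers also differed between these stages, though not all in the same way. The summed FPKM of the 10 trophectoderm genes ran from 20.9 to 25.8 at 16C. It ran from 97.5 to 147 in morulae, from 1994 to 2617 in EarlyB and from 3340 to 7530 in ExpB, most of it from keratin KRT8, and none of the 10 was at 0 in every library from Morula on. Of 9 tested, limma called 2 higher in morulae, 6 higher in EarlyB, and 4 higher and 1 lower in ExpB. The one that fell was the transcription factor GATA2, from 14.9 to 5.19 FPKM, while GATA3 went from 36.5 to 89.1. The 5 inner cell mass genes summed to between 49.6 and 57.4 in morulae, between 105 and 119 in EarlyB and between 59.2 and 83.8 in ExpB, and the 6 primitive endoderm genes to 17.1 to 23.2, 37.8 to 39.0 and 34.6 to 42.6. As background, cumulus and granulosa cells express PTGS2 around ovulation. Their 16 markers summed to between 220.3 and 656 FPKM at 4C and between 55.8 and 104 in morulae. The sum was 47.2 to 79.5 in EarlyB and 37.6 to 45.7 in ExpB, where 1 of the 16 was at 0 in every library. Of 4 with a mean of at least 1 in ExpB, SERPINE2 was at 31.3, HSD3B1 at 3.59, INHA at 1.71 and LUM at 1.70. TNFAIP6 was at 0 to 0.0358 there and CYP11A1 at 0 to 0.179. The part of all these cell types in the level of PTGS2 was not tested.

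PTGES, which makes prostaglandin E2, was listed at 0 in both MII and all 4 2C libraries. There 3 reads would have given 0.0862 to 0.112 FPKM. It was at 0.295, 0 and 0 at 4C and at 0, 0.0299, 0.593 and 0.418 at 8C, with at most 18 reads in a library. At 16C it was at 1.89, 0.267 and 9.26 FPKM, from 64, 8 and 294 reads. One 16C library thus stood far above the other two, and the 16C and 8C ranges overlapped. PTGES rose from 8C to 16C by 1.44 ± 0.43 (limma adjusted p = 0.024) and over 4C by 1.62 ± 0.46 (limma adjusted p = 0.019). Without 16C replicate 3 the differences were 0.63 and 0.81 and neither was called (adjusted p = 0.27 and 0.13). The call against 8C ended also without 8C replicate 1 or 2 (adjusted p = 0.061 each), with library weights (adjusted p = 0.31) and with these stages fitted alone (adjusted p = 0.17). The call against 4C ended without 4C replicate 2 or 3 (adjusted p = 0.059 and 0.058), with library weights (adjusted p = 0.15) and with these stages fitted alone (adjusted p = 0.21).

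The larger step of PTGES came in morulae, at 57.6, 94.7 and 79.2 FPKM. Every morula lay above every earlier library, and the difference from 16C was 4.52 ± 0.46 (limma adjusted p = 2.5e-08). In EarlyB it was at 68.0, 24.3 and 55.6, and in ExpB at 53.8, 45.8, 40.6 and 34.4. The libraries of Morula and EarlyB overlapped, and so did those of EarlyB and ExpB. The 2 differences, -0.73 ± 0.46 and -0.07 ± 0.43, were not called (limma adjusted p = 0.2 and 0.93), nor was that of ExpB from Morula, -0.80 (limma adjusted p = 0.12), although every ExpB library lay below every morula. The ExpB level was above that of MII by 5.46 ± 0.49 (limma adjusted p = 9.4e-10). With the MII libraries at 0 that value depends on the pseudocount, and it was 8.75 with a pseudocount of 0.1.

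AKR1B1, the prostaglandin F synthase of the set, was the most abundant of the 5 before the morula. It was at 1368 and 1247 FPKM in MII, at 928, 1037, 879 and 1169.9 at 2C and at 828, 965 and 845 at 4C. At 8C it was at 876, 1296, 1051 and 1906. These 4 stages overlapped as neighbours in the order of their means, and in MII the gene stood at place 39 and 53 among all genes of its library by FPKM. At 16C it was at 539, 728 and 458, below every earlier library, and in morulae at 53.1, 118 and 61.2. AKR1B1 fell from 8C to 16C by 1.12 ± 0.26 (limma adjusted p = 0.0043), a size that went below the minimum of a call without 8C replicate 4 (-0.91), without 16C replicate 3 (-0.97) and with library weights (-0.92). It fell from 16C to Morula by 2.94 ± 0.28 (limma adjusted p = 8.3e-09), with mean FPKM 7.41 times lower.

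In EarlyB AKR1B1 was still low, at 85.2, 80.1 and 81.2 FPKM (difference from morulae 0.17 ± 0.28, limma adjusted p = 0.64). In ExpB it was at 1951, 1193, 1874 and 1301. Each ExpB library lay above each EarlyB library, with mean FPKM 19.2 times higher (difference 4.22 ± 0.26, limma adjusted p = 9.6e-11). The ExpB and MII ranges overlapped, and their difference of 0.24 was not called (limma adjusted p = 0.48). The sign of that difference depended on the scaling: it was -0.19 on the TPM scale, -0.06 under median-ratio scaling and -0.39 under quantile normalization. ExpB was the highest stage by mean FPKM, whereas on the TPM scale 8C and MII, at 2939 and 2739, stood above ExpB, at 2443. The 6 oocyte markers summed to 1165 to 1831 FPKM at 16C, with 5 of the 6 lower in morulae (limma), where they summed to 216 to 291, and to 2.07 to 9.53 in ExpB.

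HPGD, the enzyme that inactivates prostaglandins, was the least abundant of the 5 in every ExpB library. It was at 0.137 and 0.0252 FPKM in MII, between 0 and 0.176 in the 2C libraries, between 0 and 0.530 at 4C, between 0.0367 and 0.391 at 8C, and at 0, 0 and 0.529 at 16C. In morulae it was at 4.65, 3.89 and 8.51, from 285 to 531 reads. Every morula lay above every other library, and HPGD rose from 16C by 2.47 ± 0.26 (limma adjusted p = 5.2e-08). It was at 0.0443, 0.207 and 1.38 in EarlyB and at 0.322, 0, 0 and 0.0163 in ExpB. It fell from Morula to EarlyB by 2.15 ± 0.26 (limma adjusted p = 8.8e-07), with mean FPKM 10.5 times lower, and the further difference of -0.42 ± 0.25 in ExpB was not called (limma adjusted p = 0.19). With a pseudocount of 0.1 the differences were 4.89, -3.76 and -1.44 in the same order. In the ExpB libraries with no read, 3 reads would have given 0.0489 and 0.0509 FPKM.

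The sums of blood markers and of sperm markers were also higher in every morula than in every 16C library, though not every single marker was. The 5 blood markers summed to between 0.0526 and 0.148 FPKM at 16C and between 7.34 and 15.1 in morulae. Their sum was 5.41 to 8.22 in EarlyB and 0.880 to 2.598 in ExpB. CD68, a lysosomal protein of macrophages, made up most of this at 8.13 ± 1.94 in morulae and 6.52 ± 1.93 in EarlyB, while PTPRC, which defines leukocytes, was at 0 to 0.208 in morulae. The 8 sperm markers summed to 0.728 to 7.81 at 16C, 12.0 to 20.2 in morulae and 9.45 to 12.6 in EarlyB, and 1 of them was at 0 in every morula. Single markers differed in course. HBB, of the blood list, was at 0 in every 16C and EarlyB library and at 0 to 4.65 in morulae. Of the sperm list, mean SPACA1 was at 5.57 in morulae and 1.185 in EarlyB, and mean PRM2 at 9.02 and 7.13. HPGD was at no more than 1.38 in EarlyB. The part of blood or sperm cells in the level of HPGD was not tested.

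**Figure D2:**
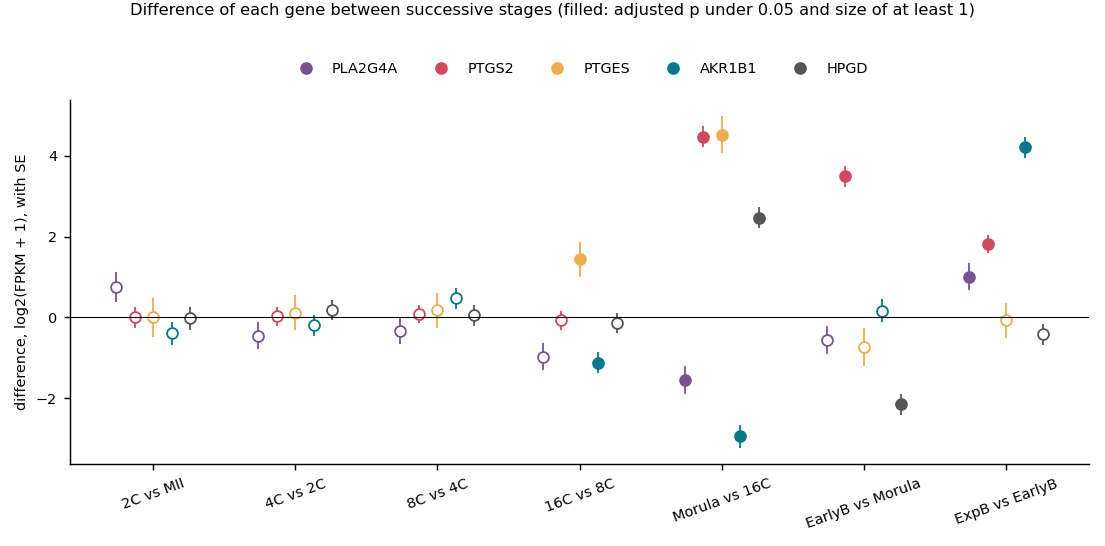
Differences of the 5 genes between successive stages on the log2(FPKM + 1) scale, with bars for the standard error of the limma fit and filled points for called differences. Called points cluster at the step from 16C to Morula, where all 5 genes were called, PTGS2, PTGES and HPGD above 0 and AKR1B1 and PLA2G4A below it.

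Counted by step, calls among the 5 genes came from 16C onward, where larger shares of all genes were called too. Up to 8C PTGS2, PTGES and HPGD had stage means of at most 0.272 FPKM, so no fall of theirs could be called there. From MII to 2C, from 2C to 4C and from 4C to 8C limma called 0 of the 5, with 0 at an unadjusted p under 0.05, where it called 6.45%, 0.00634% and 0.907% of all genes tested. At 16C against 8C 2 of 5 were called, PTGES higher and AKR1B1 lower, against 7.55% of all genes, and at 16C against 4C 2 of 5, PTGES higher and PLA2G4A lower, against 8.18%. In morulae against 16C 5 of 5 were called, where 43.1% of all genes were. They were 3 higher and 2 lower, beside 28.1% and 15% of all genes. PTGS2 and HPGD, of those higher, reached an FPKM of 1 only in morulae or later. A higher call at this step was therefore largely built into their being tested. At EarlyB 2 of 5 were called against 27% of all genes, PTGS2 higher and HPGD lower. HPGD reached an FPKM of 1 only in morulae and in EarlyB replicate 3. A lower call of HPGD after morulae was therefore largely built into its being tested. At ExpB 3 of 5 were called against 17.7%, all of them higher, where 4.65% of all genes were higher. The median difference of the 5 in ExpB against EarlyB was 1.01, the value of PLA2G4A, beside -0.3 over all genes tested. In morulae against 16C the medians were 2.47, the value of HPGD, and 0.32. A higher value of HPGD there was largely built into its being tested, so these 2 medians cannot be compared freely. With a pseudocount of 0.1, differences from low levels were larger and stayed called: 7.11 for PTGS2 in morulae, 2.86 and 3.59 for PTGES at 16C against 8C and against 4C, and 1.69 for PLA2G4A in ExpB. The split of all genes depended on the scaling. In ExpB 4.65% were higher and 13.1% lower, but 7.97% and 5.93% after median-ratio scaling and 7.97% and 6.65% after quantile normalization, and in morulae quantile normalization gave 19.4% and 20.7%. Over the whole span from MII to ExpB 3 of 5 were called, PTGS2 and PTGES higher and PLA2G4A lower, where 53.7% of all genes were. PTGS2 and PTGES were at or near 0 in MII and were tested only through later stages. No fall of theirs could be called over this span, and a higher call was favoured by the filter. From Morula to ExpB 3 of 5 were called, PTGS2 and AKR1B1 higher and HPGD lower, where 33.9% were, with the same limit on HPGD as at EarlyB.

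The balance among the transcripts of these enzymes differed between the 3 latest stages, while protein was not measured. FPKM is scaled by gene length, so levels of different genes are set side by side within a library. Whether amplification treated these genes alike was not tested. PTGS2 was below PTGES in every morula, at 0.227 to 0.489 of its FPKM, and above it afterwards, at 4.01 to 10.6 times in EarlyB and 21.4 to 24.9 times in ExpB. PTGES and AKR1B1 were close in morulae, with a ratio of 0.800, 1.08 and 1.29 from the lowest library to the highest, and in EarlyB the ratio was 0.303, 0.685 and 0.798. In ExpB AKR1B1 exceeded PTGES by 26.1 to 46.2 times. PTGS2 stood at 0.216 to 0.632 of AKR1B1 in morulae, 3.20 to 3.63 times in EarlyB and 0.538 to 0.843 in ExpB. The ranges of successive stages did not overlap for any of the 3 ratios. Exact two-sided permutation tests of the log2 ratios gave 0.057 for each step from EarlyB to ExpB and 0.1 for each from Morula to EarlyB, the smallest p that 3 against 4 and 3 against 3 libraries allow, so none could reach 0.05.

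**Figure D3:**
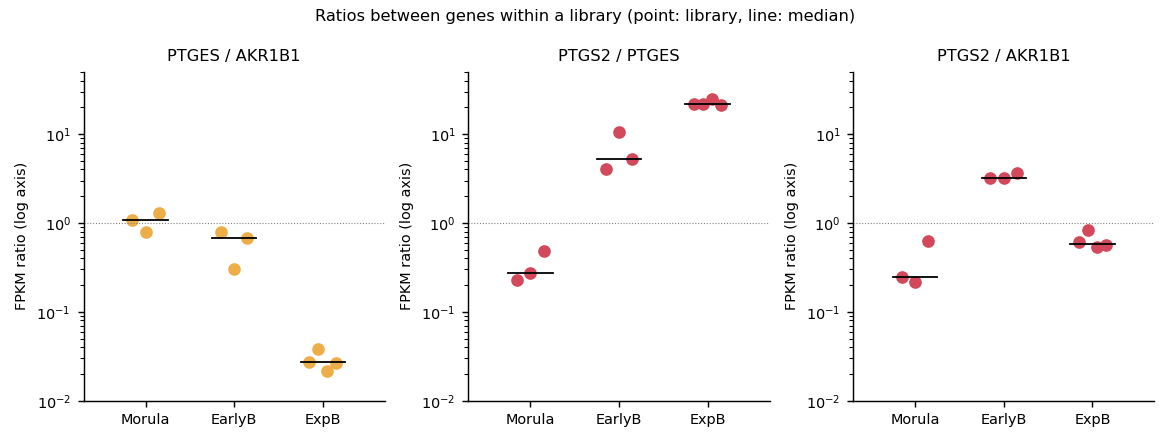
Ratios of FPKM between pairs of prostaglandin genes within each library of Morula, EarlyB and ExpB, on a log axis, with a point per library and a line for the median. The ratio of PTGS2 to PTGES climbs from below 1 in morulae to 21.4 to 24.9 in ExpB, and that of PTGES to AKR1B1 falls from about 1 to between 0.0217 and 0.0384.

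The other genes of the route were taken from 9 lists by role, also chosen with earlier results of these data known. Of 92 listed genes beside the 5, 74 were in the table and 42 passed the filter on low values. Among these 42, limma called 12 higher and 5 lower in morulae against 16C, 6 higher and 2 lower in EarlyB against Morula, and 7 higher and 3 lower in ExpB against EarlyB. In morulae these were 28.6% higher and 11.9% lower, close to the 28.1% and 15% of all genes. In EarlyB they were 14.3% and 4.76%, beside 14.7% and 12.4%, and in ExpB 16.7% and 7.14%, beside 4.65% and 13.1%. Their median differences, 0.20, 0.11 and 0.13, stood beside 0.32, 0.03 and -0.3 over all genes tested.

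**Figure D4:**
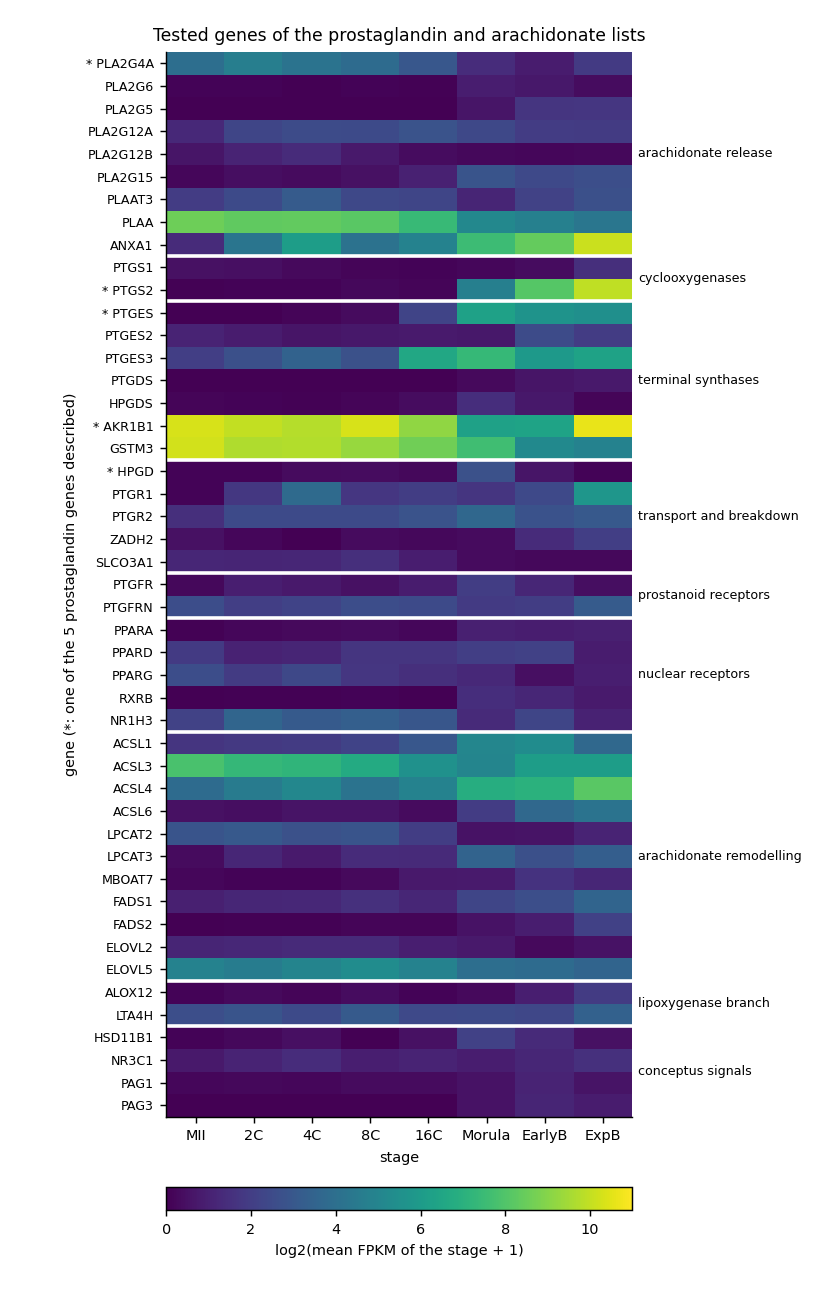
Mean levels of the 47 tested genes of the 9 prostaglandin and arachidonate lists in each stage, as log2(mean FPKM + 1), with the 5 genes described marked by asterisks. PTGS2 and ANXA1 brighten from Morula to ExpB, AKR1B1 is dimmest in Morula and EarlyB, and the rows of the prostanoid receptor list stay dim throughout.

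Around the release of arachidonate, 8 tested genes beside PLA2G4A included 2 higher and 2 lower in morulae. The lysosomal phospholipase PLA2G15 rose from 1.01 to 6.20 FPKM (difference 1.91, limma adjusted p = 1.9e-06). ANXA1, annexin A1, known as an inhibitor of phospholipase A2 activity, rose from 28.4 ± 17.6 to 186 ± 109 (difference 2.78, limma adjusted p = 0.00063). PLAA, the phospholipase A2-activating protein, fell from 168 to 34.0 and the phospholipase PLAAT3 from 3.96 to 1.23. In EarlyB the secreted phospholipase PLA2G5 rose from 0.553 to 2.23 and PLAAT3 returned to 3.49, with differences of 1.08 and 1.01. Without Morula replicate 3 these differences fell under the minimum of a call (0.93 and 0.96), as did that of PLAAT3 without EarlyB replicate 2 or 3 (0.96 and 0.98) and both with median-ratio scaling (0.91 and 0.87) or quantile normalization (0.79 each). In ExpB ANXA1 reached 1127 ± 420 (difference from EarlyB 1.64, limma adjusted p = 0.032). That call ended without any one of EarlyB replicates 1, 2 and 3 (adjusted p = 0.079, 0.075 and 0.064) or ExpB replicates 2, 3 and 4 (adjusted p = 0.086, 0.067 and 0.053), and with quantile normalization (adjusted p = 0.13) or no filter (adjusted p = 0.058).

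PTGS1, the constitutive cyclooxygenase, stayed low beside PTGS2. It was at 0.282 ± 0.152 FPKM in EarlyB and rose to 1.77 ± 0.338 in ExpB (difference 1.11, limma adjusted p = 3e-05), where PTGS2 was 449 to 701 times higher within a library.

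The 2 other prostaglandin E synthases followed courses of their own. PTGES3, the cytosolic form, which is also the p23 cochaperone of HSP90, rose from 5.67 FPKM at 8C to 94.4 ± 81.0 at 16C (difference 3.57, limma adjusted p = 2.1e-07) and to 166 ± 4.39 in morulae (1.13, limma adjusted p = 0.015). The second of these calls ended without 16C replicate 1 or 2 (adjusted p = 0.13 and 0.078), on the TPM scale (adjusted p = 0.1) and with these stages fitted alone (adjusted p = 0.091), and fell under the minimum size with median-ratio scaling (0.90) and quantile normalization (0.87). PTGES3 fell to 58.4 ± 11.7 in EarlyB (difference -1.51, limma adjusted p = 0.0029). PTGES2, the membrane-associated form, rose from 0.639 ± 0.488 in morulae to 4.705 ± 0.729 in EarlyB (1.84, limma adjusted p = 5.8e-06). In ExpB PTGES3 stood at 1.07 to 2.64 times PTGES by FPKM.

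Among the other genes of the synthase list, HPGDS and PTGDS were low at the stages given here, and GSTM3 was not. HPGDS, the hematopoietic prostaglandin D synthase, rose to 1.69 FPKM in morulae (difference 1.12, limma adjusted p = 0.00024). The size of that change fell under 1 without 16C replicate 1 or 2 (0.98 each) or Morula replicate 2 (0.99), and with median-ratio scaling (0.97) or quantile normalization (0.71). The prostaglandin D synthase PTGDS was called in none of the steps from 8C to ExpB and was at 0.684 in ExpB. GSTM3, a glutathione transferase, fell from 396 ± 44.7 at 16C to 195 ± 64.6 in morulae (-1.07, limma adjusted p = 0.0087) and to 36.4 ± 7.54 in EarlyB (-2.36, limma adjusted p = 6.1e-06). The first of its falls was no longer called without 16C replicate 3 (-0.98), without Morula replicate 2 (adjusted p = 0.058) or with library weights (adjusted p = 0.1).

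The breakdown list held 4 tested genes beside HPGD, among them the reductases that act after it. PTGR1, prostaglandin reductase 1, rose from 4.42 ± 0.957 FPKM in EarlyB to 53.8 ± 11.4 in ExpB (difference 3.33, limma adjusted p = 0.00074), with mean FPKM 12.2 times higher, at the step where HPGD was at 0 in 2 of 4 ExpB libraries. PTGR2 was at 11.9 ± 3.85 in morulae and 7.52 ± 1.92 in ExpB. It was called at none of the steps from 8C to ExpB, and its ExpB level lay above that of MII by 1.58 (limma adjusted p = 8.8e-05). SLCO2A1, the prostaglandin transporter, did not pass the filter on low values, and its highest level was 1.07 FPKM, in an ExpB library.

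The prostanoid receptor list held 10 genes, 1 of them the receptor regulator PTGFRN. Of the 10, 2 passed the filter, PTGFR and PTGFRN, so PTGFR was the only receptor tested. The prostaglandin E2 receptors PTGER2 and PTGER4 did not, with highest levels of 0.427 and 0.381 FPKM in any library, nor did the prostacyclin receptor PTGIR, with 0.0739. PTGFR, the receptor of prostaglandin F2 alpha, was at 0.763 ± 0.635 at 16C and rose to 2.99 ± 1.53 in morulae (difference 1.17, limma adjusted p = 0.0015). Its difference fell under 1 without 16C replicate 1 (0.82), without Morula replicate 2 (0.93), after median-ratio scaling (0.99) and after quantile normalization (0.69). By ExpB PTGFR was at 0.340 ± 0.132, lower than in morulae by 1.49 (limma adjusted p = 7.5e-05). PTGFRN, a regulator of that receptor, rose from 3.002 in EarlyB to 7.89 in ExpB (1.15, limma adjusted p = 0.011).

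Among 5 tested nuclear receptors that bind fatty acids or their partners, PPARG was at 5.05 ± 0.392 FPKM in MII and 0.914 ± 0.354 in ExpB, a fall of 1.68 (limma adjusted p = 6.1e-07). It was called at none of the steps from 8C to ExpB. PPARD was at 3.32 ± 1.29 in EarlyB and fell to 0.813 ± 0.169 in ExpB (-1.22, limma adjusted p = 0.00016), a difference that went under 1 without EarlyB replicate 1 (-0.99), after median-ratio scaling (-0.94) and after quantile normalization (-0.77). RXRB, a retinoid X receptor, had a value of 0 in all 16C libraries and 1.70 in morulae (1.39, limma adjusted p = 8.3e-08), a call that did not hold after quantile normalization, where its difference was just under the minimum size. NR1H3, the liver X receptor alpha, fell from 6.61 at 16C to 1.47 in morulae (-1.65), rose to 3.91 in EarlyB (1.02) and fell to 1.05 in ExpB (-1.27). Its rise was below 1 without Morula replicate 3 (0.79) or EarlyB replicate 1 (0.91) and with library weights (0.92). Both its rise and its later fall were below 1 in size with median-ratio scaling (0.87 and -0.98) and after quantile normalization (0.79 and -0.83).

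Of 11 tested enzymes that load or remodel arachidonate, 5 were higher and 1 lower in morulae, where 28.1% and 15% of all genes were. The acyl-CoA synthetase ACSL4, which prefers arachidonate, rose from 28.5 ± 8.58 at 16C to 115 ± 34.8 FPKM in morulae (difference 1.97, limma adjusted p = 1.5e-05). It rose again from 130.3 ± 21.9 in EarlyB to 293 ± 53.1 in ExpB (1.16, limma adjusted p = 0.0037), where with quantile normalization the difference was 0.88. The acyltransferase LPCAT3, which puts polyunsaturated chains into phospholipids, rose from 1.45 to 10.2 in morulae (2.25), ACSL1 from 6.92 to 32.6 (2.23) and ACSL6 from 0.245 to 2.85 (1.54), and LPCAT2 fell from 2.96 to 0.435 (-1.42). The desaturase FADS1 rose from 1.29 to 3.90 (1.08). The difference of FADS1 was under 1 without 16C replicate 3 (0.96), Morula replicate 2 (0.97) or Morula replicate 3 (0.97), on the TPM scale (0.95), with median-ratio scaling (0.88), quantile normalization (0.61) or library weights (0.91). ACSL3 fell from 8C to 16C (-1.18) and rose in EarlyB from 31.6 to 69.4 (1.11), while ACSL6 went on to 12.0 (1.86). In ExpB the desaturase FADS2 rose from 0.846 to 3.42 (1.28) and ACSL1 fell from 39.9 to 12.1 (-1.63).

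Beside these, LTA4H of the leukotriene branch rose from 4.08 to 9.81 FPKM in ExpB (1.08, limma adjusted p = 0.0094), a difference of 0.97 without EarlyB replicate 1 and of 0.97 without ExpB replicate 4. HSD11B1, the cortisone reductase of the conceptus list, rose to 3.35 ± 2.40 in morulae (1.51, limma adjusted p = 0.0035), with ranges that overlapped those of 16C. At 16C against 8C PTGES3 and ACSL3 were the called ones of the 42, 1 higher and 1 lower.

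The genes whose levels ran most like each of the 5 were read from Pearson's r of log2(FPKM + 1) over the 26 libraries. Libraries of a stage lie close together, so these values describe shared steps between stages and have no p. Beside PTGS2 stood the organic anion transporter SLCO4C1, the glycerophosphodiesterase GDPD2 and keratin KRT8, each at 0.993. KRT8, a keratin of simple epithelia and one of the trophectoderm markers, went from 67.8 FPKM in morulae to 1531 in EarlyB and 4313 in ExpB. For PTGES they were NPL, EIF3G and F11R, at 0.988, 0.987 and 0.985. F11R, a tight junction adhesion molecule, was at 6.03 FPKM at 16C and 80.9 in morulae, followed by 60.1 in EarlyB and 52.7 in ExpB. AKR1B1 had the least close companions, CLIC4 at 0.942, BTBD3 at 0.916 and REXO2 at 0.910. CLIC4, an intracellular chloride channel protein, was also low in morulae and EarlyB, at 63.5 and 104 FPKM, between 332 at 16C and 503 in ExpB. Those of HPGD were NAT8, SLC14A2 and TMEM236 (0.950, 0.947 and 0.944), and those of PLA2G4A were GNPNAT1, MTM1 and SLITRK6 (0.955, 0.955 and 0.952).

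In the sheep reference gene table of assembly ARS-UI_Ramb_v3.0, where all 5 symbols were found, PTGS2 and PLA2G4A are neighbouring protein-coding genes. Their levels nonetheless ran in opposite directions from 16C to Morula, 4.48 for PTGS2 and -1.54 for PLA2G4A on the log2(FPKM + 1) scale, and both rose from EarlyB to ExpB. PDC, on the other side of PTGS2, was at 8.55 ± 10.8 FPKM in morulae and at 0 in all 4 ExpB libraries. A long noncoding RNA gene, LOC121816051, overlaps PTGS2 in that assembly and was at 1.43 ± 0.281 FPKM in EarlyB and 1.20 ± 0.486 in ExpB. Whether counting used strand is not given in the sources used here, so reads of PTGS2 and of that gene may not be fully separate. HPGD also overlaps a long noncoding RNA gene there, which was not analysed here.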

How the data were processed

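The authors deposited 1 table of FPKM values with a column per library and 30186 genes. The submitters' processing notes name featureCounts 2.0.1, HISAT2 2.1.0, fastp 0.23.4 and SAMtools 1.9, without role or order. Genome build, annotation and depth were not given in the sources used here. Columns were matched to libraries by title. Depth was computed from the steps that whole reads leave in low FPKM values, of which 99.7% to 100.0% were whole within 0.05 reads. Read numbers of a gene come from a length found the same way, which was found for 4 of the 5 genes and not for AKR1B1.

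The fit used limma 3.58.1 (R 4.3.3) and log2(FPKM + 1) values of all 26 libraries, with a mean for each of the 8 stages and an intensity trend in eBayes. The 15766 genes that reached an FPKM of 1 in 2 or more libraries were tested in 10 contrasts, with two-sided moderated tests and Benjamini-Hochberg adjustment over all tested genes within a contrast. Values were simulated for 4C against 2C over the 15766 genes, with differences given only to some well-expressed genes. Of these, 92% of differences of 1.5 and 99% of differences of 3 were called. The shares do not cover genes near 0, such as PTGS2, PTGES and HPGD at these stages. No 2 libraries held identical values. Replicate numbers did not pair libraries across stages: residuals correlated at a median of 0.00443 for the same number and -0.00478 for different numbers.

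The 5 genes and all gene lists were chosen with earlier results of these data known. Named beside the 5 are the called list genes of the steps described, a fixed set of synthases, transporters, reductases and receptors, and the 3 genes with the highest r, leaving out names that begin with LOC or TRN. Listed genes absent from the table, among them CBR1, ABCC4, AKR1C3 and IFNT, were not analysed here. Alternatives changed the scaling, pseudocount, filter, trend, library weights, block, stages fitted, call rule and likeness measure, or left out each library.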

Additional observations from a re-analysis of the deposited data

Results flagged for a closer look

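Among 14 groups of 4 libraries tested for a single distant value, 1 was marked: HPGD in ExpB replicate 1, at 0.322 FPKM from 15 reads, where the other 3 ExpB libraries lay between 0 and 0.0163. The gap to the nearest made up 0.942 of the range of the group. Chance marks about 1 in 20 groups, so 1 of 14 is near what chance gives.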

How the results depend on the processing

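The 20 called differences of the 5 genes were refitted under 11 other settings and without each of the 26 libraries. In 717 of 737 runs the call and direction held, in 20 the call ended and in 0 it reversed, and all 179 runs of the F test kept their side of the threshold. Many of these runs left out a library of neither stage compared, and dropping the minimum size can only keep a call. The total therefore overstates how firm the calls at 16C are, where PTGES against 8C was called in 32 of 37 runs. The runs that ended a call concern PTGES and AKR1B1 at 16C, PLA2G4A at 16C against 4C and PLA2G4A in ExpB, with values given beside them above, or below for the replicate block. Without one library at a time the number of the 5 called was 1 to 2 at 16C against 8C and 1 to 2 at 16C against 4C. With library weights it was 1 in each, and with only the 2 stages fitted 1 and 0, where fewer libraries are used. With a filter at FPKM 5 it was 1 in EarlyB against Morula, where HPGD was not tested.

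Among differences that were not called, signs changed for AKR1B1 in ExpB against MII (-0.19 on the TPM scale, -0.06 with median-ratio scaling, -0.39 with quantile normalization), for PTGES in ExpB against EarlyB (0.30 with median-ratio scaling, 0.04 with quantile normalization), for AKR1B1 at 2C against MII (0.02 with quantile normalization) and for PTGS2 at 16C against 4C (-0.01 with a pseudocount of 0.1). The cause was not tested. Leaving out single libraries gave -0.09 to 0.06 for HPGD at 2C against MII, -0.04 to 0.09 for PTGS2 at 4C against 2C, -0.09 to 0.22 for HPGD at 8C against 4C, -0.05 to 0.52 for AKR1B1 in EarlyB against Morula, -0.50 to 0.22 for PTGES in ExpB against EarlyB, -0.29 to 0.08 for HPGD at 16C against 4C and -0.10 to 0.10 for PTGS2 at 16C against 4C.

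With the replicate number as a block, PTGS2 at 4C against 2C was -0.02 and PLA2G4A in ExpB against EarlyB was 0.90 (adjusted p = 0.024), under the minimum of a call, and the block changed no other call of the 5 genes. The same numbers did not pair the libraries, and 10 of 26 correlated best with their own number.

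The most similar genes depended on the measure. Of the 3 named for each, Spearman's rho shared 0 for PTGS2, AKR1B1 and HPGD and 1 for PTGES and PLA2G4A, and Pearson's r over the 8 stage means shared 0 for PTGS2 and HPGD and 1 for PLA2G4A. The median difference of all genes in morulae against 16C was 0.32, 0.13 on the TPM scale, 0.18 after median-ratio scaling and -0.01 after quantile normalization. In ExpB against EarlyB it went from -0.3 to -0.08 and -0.01 in the last 2 of these.

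Depth limits HPGD and, before the morula, PTGS2 and PTGES, whose libraries hold few reads or none.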
